A study of Mus musculus with 20 samples.

Results

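Transcript levels of 37 genes of glycolysis and central carbon metabolism were followed in mouse regulatory T cells (Tregs) and CD8+ T cells that received no cytokine, IL-2 or the IL-2 mutein IL-2-REH. The 37 genes were given as a list of symbols that share a function, out of 23992 gene symbols in the files, and the list was drawn up with earlier results of these data known. Where a gene had several transcripts, the one that collected most reads in the 20 libraries was used. All 37 genes had enough reads in the Treg libraries to be tested.

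The Tregs were sorted by GFP from spleen and lymph nodes of B6-Foxp3EGFP mice, in which GFP marks cells that express Foxp3, and the CD8+ T cells were enriched with a kit from C57BL/6J mice. The labels name the strain of every sample as C57BL/6N and give neither age nor which mice were pooled. There were 5 groups of each cell type: unstimulated cells, and cells given 200 nM IL-2 or 200 nM IL-2-REH for 90 min or for 4 hr. IL-2-REH is IL-2 with substitutions in the face that contacts the common gamma chain, and acts as a partial agonist of the IL-2 receptor. Each Treg group had 3 libraries (replicates 1 to 3) and each CD8+ group had 1. By the study's methods, mouse strain and isolation differ along with cell type, so their parts cannot be told apart. Nothing in the labels says that the replicates came from separate mice, so p-values measure the spread between these samples, which may be technical.

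Glucose enters T cells through the transporters encoded by Slc2a1 (GLUT1) and Slc2a3 (GLUT3), is trapped by hexokinases and is split and oxidized to pyruvate by the enzymes of glycolysis. Pyruvate either becomes lactate, which leaves the cell through the monocarboxylate transporters Slc16a1 (MCT1) and Slc16a3 (MCT4), or enters mitochondria, a step that pyruvate dehydrogenase kinases restrain. The pentose phosphate pathway branches off glucose phosphate to make NADPH and ribose, and glutaminase and the aspartate transaminases link glutamine and aspartate to the same carbon pool. IL-2 is known to raise glucose use in activated T cells, and HIF-1alpha, the product of Hif1a, is a transcription factor that activates many glycolytic genes.

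The reads counted on genes numbered 20201392 to 63903764 in the Treg libraries, with the fewest in replicate 3 of IL-2 at 4 hr, and 38201667 to 45189835 in the CD8+ libraries. Foxp3 was at 65.2 to 252 RPKM (reads per kilobase of exon, scaled to the mapped reads of the library) in Tregs and at most 0.999 in CD8+ cells, while Cd8a was at most 1.84 in Tregs and 103 to 256 in CD8+ cells. The summed level of 2 neutrophil markers, S100a8 and S100a9, was 45.9 to 201 RPKM in the Treg libraries of replicate 3 and at most 3.4 in those of replicates 1 and 2. Erythroid markers summed to 172 to 300 RPKM in replicate 3 and to at most 26.7 in the others. Their part in the results below was not tested. Leaving out replicate 3 is given below for P4ha1 and Slc2a3, and in the closing section only within ranges over libraries left out.

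The unstimulated Treg library of replicate 1 stood apart from the other two. It was over 2-fold away from the mean of replicates 2 and 3 in 9 of the 37 members and in 1590 of 15009 genes tested, while replicate 2 was over 2-fold away from replicate 3 in 0 members. Its 5 Treg markers (Foxp3, Il2ra, Ctla4, Ikzf2 and Tnfrsf18) summed to 1060.3 RPKM, against 684 and 662 in unstimulated replicates 2 and 3 and 1086.1 to 1392.3 after IL-2 for 90 min. Sums of some markers of other cells were lower in unstimulated replicate 1 than in replicates 2 and 3. In replicates 1, 2 and 3 they were 15.1, 68.9 and 54.1 RPKM for 7 macrophage and dendritic cell genes. For 3 NK cell genes they were 3.24, 19 and 12.2, for 5 B cell genes 2.37, 7.86 and 16.5, and for 6 erythroid genes 9.87, 18.8 and 300. Replicate 1 was not the lowest for 2 neutrophil genes (1.43, 1.04 and 136) or 2 CD8 T cell genes (6.1, 5.77 and 6.96). In treated libraries the macrophage and dendritic sums were 27.4 to 39.2 RPKM for replicate 2 and 19.1 to 33.5 for replicate 3. They were 7.78 to 14.5 RPKM in the treated libraries of replicate 1, so low sums were shared by all its libraries. The part of these markers in the results was not tested. Comparisons with unstimulated Tregs are therefore given with and without the unstimulated library of replicate 1. The cause of its difference was not tested. In such bulk RNA, fewer cells of a type and less RNA per cell cannot be told apart.

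Promoter windows of RefSeq start sites (GRCm38.p6, 250 bases before to 50 after each start) were given for 35 of the 37 genes, in 50 windows. The core of the hypoxia response element, read by HIF-1, was searched as ACGTG or GCGTG on either strand. A window with a match was found for 33 of the 35 genes, for 7061 of 10931 genes tested that had a window and for 12628 of all 27025 genes with one. Counted by window, the core was in 82% of the members' windows, in 59.2% of the windows of all genes tested and in 43.8% of all windows. The E-box CACGTG, read by Myc and overlapping the former motif, was in 14% of the members' windows and in 9.29% of those of genes tested, and the STAT5 motif TTCNNNGAA was in 4% and 7.02%. These are counts of letters and not of bound sites. For the 5 genes with a window that are described most closely below, the first window listed is shown in the direction of transcription, with the HIF core matches in capitals. They lie at chr11:120948817-120949116 on the plus strand (Slc16a3), chr10:59323046-59323345 on the plus strand (P4ha1), chr19:43524556-43524855 on the minus strand (Got1), chr12:73907617-73907916 on the plus strand (Hif1a) and chr2:71872974-71873273 on the plus strand (Pdk1).
Slc16a3: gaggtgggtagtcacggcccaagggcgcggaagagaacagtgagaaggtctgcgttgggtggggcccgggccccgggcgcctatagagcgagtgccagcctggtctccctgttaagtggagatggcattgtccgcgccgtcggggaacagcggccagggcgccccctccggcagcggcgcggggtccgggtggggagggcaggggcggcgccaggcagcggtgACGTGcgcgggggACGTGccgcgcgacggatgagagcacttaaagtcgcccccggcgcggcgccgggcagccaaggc
P4ha1: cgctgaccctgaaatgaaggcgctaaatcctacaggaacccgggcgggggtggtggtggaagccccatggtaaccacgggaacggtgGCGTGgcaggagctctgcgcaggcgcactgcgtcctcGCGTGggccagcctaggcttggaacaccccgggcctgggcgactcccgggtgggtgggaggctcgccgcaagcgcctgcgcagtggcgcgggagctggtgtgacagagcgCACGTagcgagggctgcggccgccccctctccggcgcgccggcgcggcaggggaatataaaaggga
Got1: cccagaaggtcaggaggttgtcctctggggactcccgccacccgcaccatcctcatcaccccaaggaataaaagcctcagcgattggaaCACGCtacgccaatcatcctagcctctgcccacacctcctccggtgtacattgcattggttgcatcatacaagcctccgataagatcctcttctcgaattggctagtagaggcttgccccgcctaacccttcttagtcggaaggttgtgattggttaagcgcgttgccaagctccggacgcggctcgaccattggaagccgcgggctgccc
Hif1a: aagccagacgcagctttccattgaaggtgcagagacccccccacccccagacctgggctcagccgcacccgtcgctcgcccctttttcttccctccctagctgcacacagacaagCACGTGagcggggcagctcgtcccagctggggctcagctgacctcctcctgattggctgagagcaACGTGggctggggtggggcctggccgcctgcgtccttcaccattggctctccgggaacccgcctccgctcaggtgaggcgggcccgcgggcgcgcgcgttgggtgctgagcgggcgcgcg
Pdk1: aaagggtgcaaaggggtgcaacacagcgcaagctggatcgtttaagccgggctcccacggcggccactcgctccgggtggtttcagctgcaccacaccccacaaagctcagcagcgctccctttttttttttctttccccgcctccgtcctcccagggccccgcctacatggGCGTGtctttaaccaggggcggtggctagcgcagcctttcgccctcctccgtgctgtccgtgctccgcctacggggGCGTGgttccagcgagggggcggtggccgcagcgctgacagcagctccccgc
The matches numbered 2 in Slc16a3, 3 in P4ha1, 1 in Got1, 3 in Hif1a and 2 in Pdk1. In Hif1a a pair of them overlap in 1 E-box. The genes without a window were Gls2 (chr10:128194635-128210004, plus strand) and Slc2a3 (chr6:122727809-122802363, minus strand).

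In Tregs the members spanned a wide range of levels per length of transcript. The mean over 15 libraries was highest for Gapdh (301 RPKM), followed by Pkm (168), Ldha (160), Aldoa (109), Hif1a (96.7), Eno1 (93), Got1 (92.2) and Gpi1 (84). It was lowest for Aldoc (1.38 RPKM), Hk2 (1.65), Pfkfb4 (1.82), Bnip3 (2.19) and Pfkm (2.32). Gapdh, Pkm and Ldha, all of lower glycolysis, were thus the highest members, and the hexokinase Hk1, at 23.4 RPKM, was far above Hk2. Together the 37 genes summed to 1521.7 to 1844.9 RPKM in the Treg libraries and to 933 to 1436.6 in the CD8+ libraries. Gapdh alone held 12.6% to 21% of that sum, with the smallest share in the shallowest library.

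**Figure D1:**
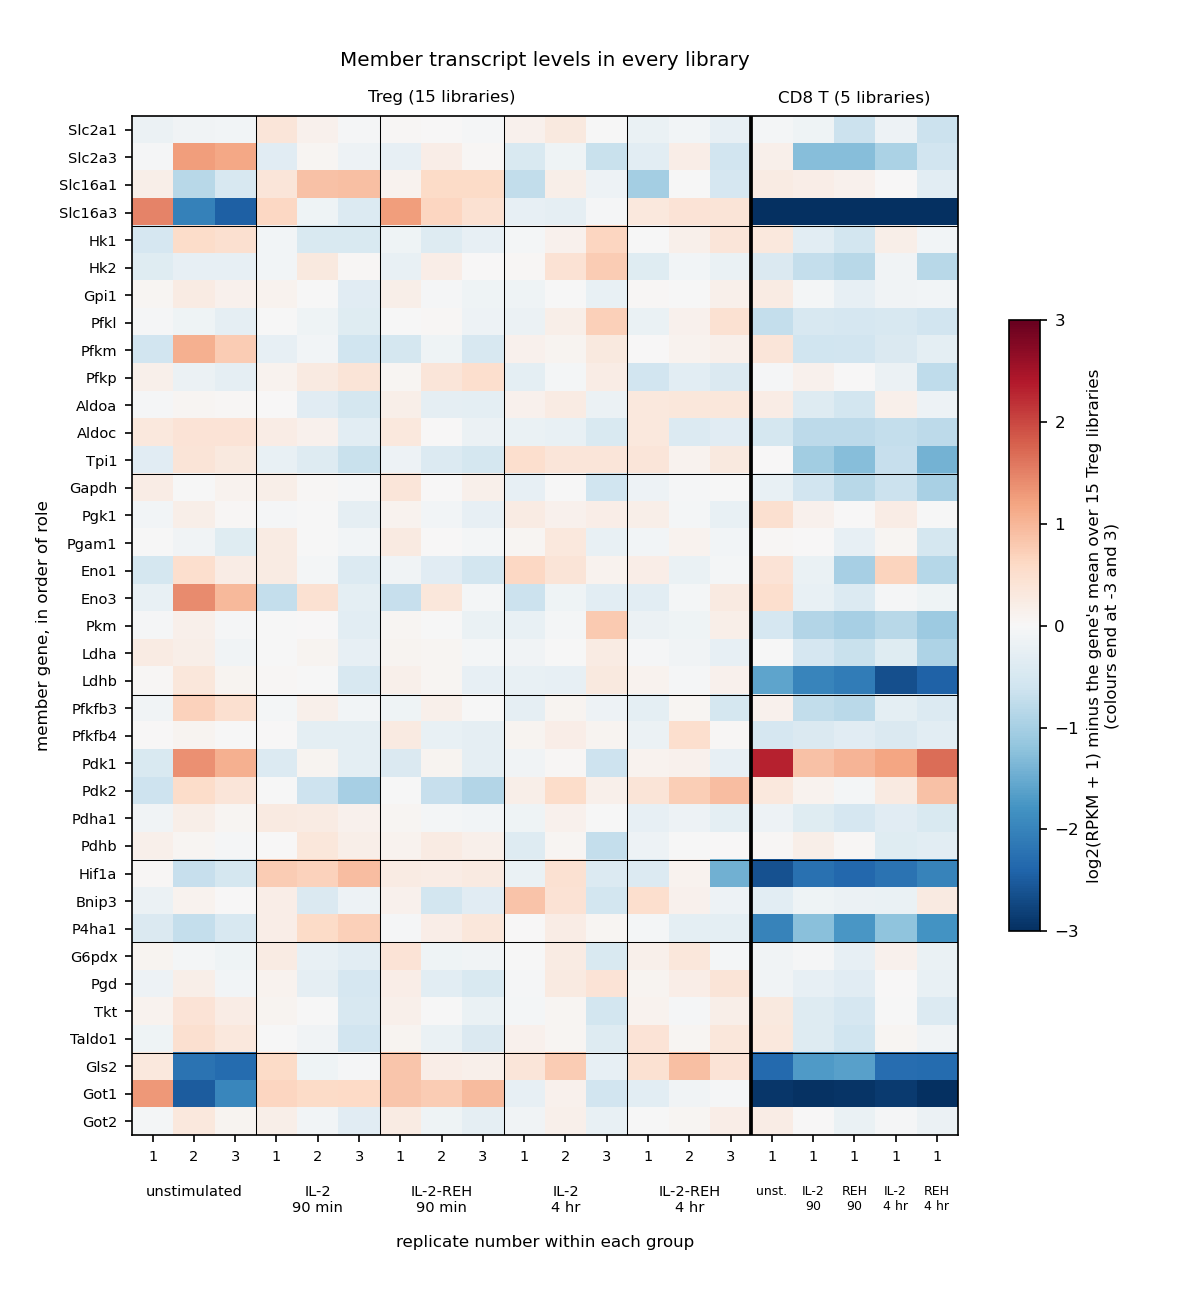
Heat map of the 37 members (rows, in order of role) in the 20 libraries (columns). Colour shows log2(RPKM + 1) minus the gene's mean over the 15 Treg libraries. In the unstimulated Tregs, replicate 1 differs from replicates 2 and 3 for Slc16a3, Gls2, Got1 and Pdk1, and the CD8+ libraries are low for Slc16a3, Hif1a, Gls2 and Got1 and high for Pdk1.

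Against all 3 unstimulated Treg libraries, few members changed. In edgeR's quasi-likelihood test, with p-values adjusted by the Benjamini-Hochberg method over 15009 genes, P4ha1 rose with IL-2 at 90 min (1 of 37 members, against 0.853% of all genes called at an adjusted p below 0.05). Slc2a3 fell with IL-2 at 4 hr (1 of 37, against 2.27% of all genes). No member was called with IL-2-REH at 90 min (0 of 37, against 0.0933%) or at 4 hr (0 of 37, against 0.313%), where 8 and 4 members had an unadjusted p below 0.05 in edgeR, as did 11.4% and 13.3% of all genes. DESeq2, which gave 34 of the 37 an adjusted p, called 4 members with IL-2 at 90 min (against 4.54% of all genes), 0 with IL-2-REH at 90 min (0.867%), 4 with IL-2 at 4 hr (6.84%) and 2 after IL-2-REH at 4 hr (4.29%). The call of P4ha1 was lost without unstimulated replicate 2 or 3 (log2 fold change 1.07 and 1.27, edgeR adjusted p = 0.21 and 0.11) and without all libraries of replicate 2 or 3 (1.04 and 1.05). The call of Slc2a3 was lost without any 1 of the 3 libraries of IL-2 at 4 hr (-1.33, -1.42 and -1.26, edgeR adjusted p = 0.086, 0.09 and 0.14), without unstimulated replicate 2 or 3 (-1.22 and -1.13) and without all libraries of replicate 2 or 3 (-1.30 and -1.03).

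Same-numbered libraries moved together, and with the replicate number as a block the edgeR counts became 1 of 37 with IL-2 at 90 min (1.83% of all genes), 0 with IL-2-REH at 90 min (0.213%), 4 with IL-2 at 4 hr (6.92%) and 2 with IL-2-REH at 4 hr (3.03%). Those added by the block were Hk2, Aldoc and Eno3 with IL-2 at 4 hr, and Slc2a3 and Pfkfb3 after IL-2-REH at 4 hr.

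Without the unstimulated library of replicate 1, more genes passed the test, members and others alike. Then 12 members were called with IL-2 at 90 min (8 higher and 4 lower, against 12.9% of all 15494 genes tested) and 9 with IL-2-REH at 90 min (6 higher and 3 lower, against 12.1%). At 4 hr 6 members were called with IL-2 (3 higher and 3 lower, against 8.87%) and 6 with IL-2-REH (3 higher and 3 lower, against 6.93%). With the replicate block added to this fit, 17 members were called with IL-2 (against 26.9% of all genes) and 17 after IL-2-REH (25.4%) at 90 min, and 13 (21%) and 9 (16.7%) at 4 hr. In the fit without the block, the median log2 fold change of the members lay between -0.05 and 0.18 in these 4 comparisons and that of all genes between 0.03 and 0.06. In 11 of the 37 members, unstimulated replicates 2 and 3 both lay outside the range of the 12 cytokine-treated libraries on the same side, as did 21.9% of all genes tested. In 7 of those 11 replicate 1 lay inside the treated range, as it did in 2752 of the 3288 genes tested with that pattern.

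**Figure D2:**
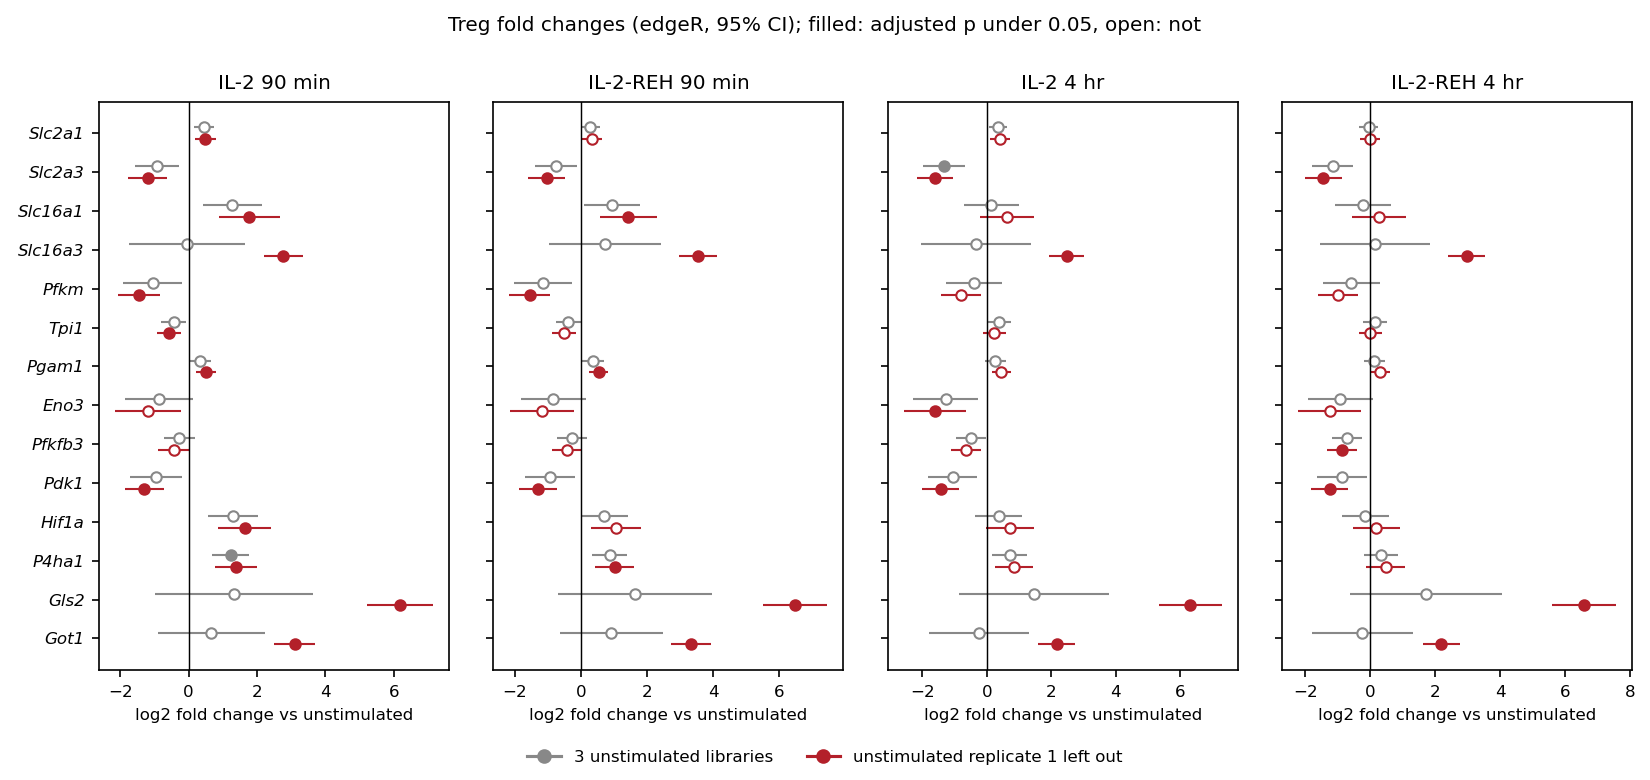
Log2 fold changes against unstimulated Tregs (horizontal axis) of the 14 members called in at least 1 of these comparisons, with 95% confidence intervals from edgeR. Grey points use 3 unstimulated libraries and red points leave out replicate 1, and filled points have an adjusted p below 0.05. Gls2, Slc16a3 and Got1 move furthest between the fits, while Slc2a3 and P4ha1 stay on their side.

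Among the transporters, Slc2a3 was lower after either cytokine and Slc16a3 was the most variable. Slc2a3 was at 10.7, 27.7 and 25.9 RPKM in unstimulated replicates 1, 2 and 3, and at 8.51, 11.4 and 9.79 RPKM with IL-2 and 9.14, 12.8 and 11.2 RPKM after IL-2-REH at 90 min. At 4 hr it was at 7.69, 9.86 and 6.47 RPKM with IL-2 and at 8.54, 12.8 and 7.02 RPKM after IL-2-REH. Unstimulated replicates 2 and 3 were thus above all 12 treated libraries and replicate 1 was among them, yet each same-numbered pair was lower after treatment. The log2 fold change of Slc2a3 with IL-2 at 4 hr was -1.33 ± 0.30 (SE, edgeR adjusted p = 0.036). With IL-2-REH at 4 hr it was -1.16 ± 0.30 (edgeR adjusted p = 0.13, and 0.022 with the replicate block). The values without unstimulated replicate 1 were -1.61 and -1.44 (edgeR adjusted p = 0.0032 and 0.0075).

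Slc16a3, the exporter of lactate from highly glycolytic cells, was at 63.3, 4.62 and 3.24 RPKM in unstimulated replicates 1, 2 and 3. With IL-2 it was at 34.1, 19.9 and 16.3 RPKM at 90 min and at 18.5, 18.2 and 21.6 RPKM at 4 hr. With IL-2-REH it was at 53.5, 35.2 and 30.4 RPKM at 90 min and at 27.6, 29.4 and 29.1 RPKM at 4 hr. All treated libraries lay above unstimulated replicates 2 and 3 and below replicate 1. With all 3 unstimulated libraries the log2 fold changes ranged from -0.34 to 0.72 with SEs of 0.79, and none passed the test. Without replicate 1 Slc16a3 rose by a log2 fold change of 2.77 ± 0.26 with IL-2 and 3.54 ± 0.27 after IL-2-REH at 90 min (SE, edgeR adjusted p = 4.7e-05 and 1.7e-05). At 4 hr the changes were 2.48 ± 0.26 and 2.97 ± 0.26 (edgeR adjusted p = 0.0002 and 8.7e-05).

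Slc16a1, which carries lactate and pyruvate in either direction, was at 9.67, 4.36 and 5.81 RPKM in unstimulated replicates 1, 2 and 3. It was at 11.1, 16.4 and 16.8 RPKM with IL-2 and 9.28, 13.1 and 13.1 RPKM after IL-2-REH at 90 min. By 4 hr it was at 4.64, 9.66 and 7.5 RPKM with IL-2 and 3.71, 8.36 and 5.71 RPKM after IL-2-REH, overlapping the unstimulated values. Without unstimulated replicate 1 it rose at 90 min, by a log2 fold change of 1.77 ± 0.41 with IL-2 and 1.44 ± 0.40 after IL-2-REH (edgeR adjusted p = 0.014 and 0.034). With all 3 libraries it did not pass (1.28 ± 0.40 with IL-2, edgeR adjusted p = 0.18). Slc2a1, the main glucose transporter of activated T cells, moved little: it was at 10.1, 10.6 and 10.8 RPKM in unstimulated cells and at 15.3, 12.8 and 11.3 RPKM with IL-2 and 11.9, 11.7 and 11.3 RPKM after IL-2-REH at 90 min. At 4 hr it was at 12.8, 14.5 and 11.4 RPKM with IL-2 and at 9.98, 10.8 and 9.69 RPKM after IL-2-REH. Its log2 fold change with IL-2 at 90 min was 0.44 ± 0.13 (edgeR adjusted p = 0.18), and 0.49 ± 0.14 without unstimulated replicate 1 (edgeR adjusted p = 0.041).

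In upper glycolysis, Hk2, the inducible hexokinase, was low in every library but was highest with IL-2 at 4 hr. It was at 0.999, 1.18 and 1.19 RPKM in unstimulated Tregs, at 1.44, 2.18 and 1.67 RPKM with IL-2 and 1.22, 1.97 and 1.63 RPKM after IL-2-REH at 90 min. At 4 hr it was at 1.67, 2.49 and 3.41 RPKM with IL-2 and at 1.02, 1.43 and 1.26 RPKM after IL-2-REH. Every IL-2-treated library was above the unstimulated ones, and with IL-2-REH at 4 hr the values overlapped them. The log2 fold change with IL-2 at 4 hr was 1.26 ± 0.32 (SE, edgeR adjusted p = 0.057), and 1.19 with the replicate block (edgeR adjusted p = 0.011).

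The other hexokinase, phosphofructokinase and aldolase genes mostly stayed within a narrower band. Pfkm, the muscle-type phosphofructokinase, was at 1.12, 5.63 and 4.33 RPKM in unstimulated replicates 1, 2 and 3 and at 1.09 to 2.83 RPKM in the 12 treated libraries. Without unstimulated replicate 1 it fell at 90 min, by 1.45 with IL-2 and 1.55 after IL-2-REH on the log2 scale (edgeR adjusted p = 0.0061 and 0.0045). Its exons overlap those of Senp1 on the opposite strand, and reads there cannot be assigned to either gene with certainty. Aldoc, an aldolase best known from brain, was at 1.9, 2.11 and 2.09 RPKM unstimulated and at 1.03, 0.986 and 0.693 RPKM with IL-2 at 4 hr, without overlap (log2 fold change -1.10 ± 0.36, edgeR adjusted p = 0.13, and 0.041 with the replicate block). Hk1 was at 15.6, 33.8 and 32.1 RPKM in the unstimulated libraries, so replicate 1 was again on the side of the libraries treated for 90 min, which held 16.2 to 21.2 RPKM. Gpi1 and Aldoa were not called against unstimulated cells, with or without that library. Pfkl and Pfkp were called only with the replicate block and without that library together, Pfkp at 90 min (log2 fold change 0.86 with IL-2 and 0.92 after IL-2-REH, edgeR adjusted p = 0.0032 and 0.0022) and Pfkl with IL-2 at 4 hr (0.76, edgeR adjusted p = 0.035).

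Tpi1, triosephosphate isomerase, was at 16.6, 28.1 and 26.3 RPKM in unstimulated replicates 1, 2 and 3. It was at 13.1 to 18.1 RPKM with IL-2 at 90 min and at 27.7 to 30.8 RPKM with IL-2 at 4 hr. It fell at 90 min without unstimulated replicate 1 (log2 fold change -0.58 ± 0.16, edgeR adjusted p = 0.033). In the same fit it rose from 90 min to 4 hr with IL-2 (0.82 ± 0.15, edgeR adjusted p = 0.036). Its exons overlap those of Spsb2 on the opposite strand.

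Of the 8 genes of lower glycolysis, none was called against the 3 unstimulated libraries without the block. Gapdh was at 323 ± 27.3 RPKM in unstimulated Tregs (SD, n = 3), 309 ± 23.2 and 340 ± 42.8 with IL-2 and IL-2-REH at 90 min, and 248 ± 49.2 and 287 ± 15.2 at 4 hr. Ldha, which turns pyruvate into lactate, was at 188, 181 and 147 RPKM unstimulated, and at 135 to 169 RPKM in the libraries treated for 90 min. At 4 hr it was at 147 to 188 RPKM with IL-2 and at 135 to 156 RPKM after IL-2-REH. No fold change of either gene passed the test. Pkm, pyruvate kinase, was at 286 RPKM in replicate 3 of IL-2 at 4 hr and at 133 to 187 RPKM in the other 14 Treg libraries, and that library was also the highest for Pfkl and Hk2. Eno3, a muscle-type enolase, was at 4.73, 16.8 and 12.1 RPKM unstimulated and at 3.11 to 8.26 RPKM in the treated libraries. Its log2 fold change with IL-2 at 4 hr was -1.28 ± 0.47 (edgeR adjusted p = 0.18), -1.16 with the replicate block (0.024) and -1.61 without unstimulated replicate 1 (0.044). Pgam1, a mutase of lower glycolysis, was at 30.4, 28.4 and 23.3 RPKM unstimulated and at 36.5, 30.3 and 28.5 RPKM with IL-2 at 90 min. Each pair was higher, and without unstimulated replicate 1 the rise passed the test with either cytokine (log2 fold change 0.52 and 0.54, edgeR adjusted p = 0.023 and 0.02). Several of these genes have near-identical copies elsewhere in the genome, which can take or lose reads in uniquely mapped counts.

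Among the regulators, Pdk1, which phosphorylates and shuts off pyruvate dehydrogenase, resembled Slc2a3 in replicates 2 and 3 but not in replicate 1. It was at 5.58, 22.1 and 17.9 RPKM in unstimulated replicates 1, 2 and 3, and at 4.81 to 8.81 RPKM in the 12 treated libraries. Unstimulated replicates 2 and 3 were thus over all treated libraries and replicate 1 was among them. Within replicate 1 Pdk1 did not fall, with RPKM ratios to the unstimulated library of 1.02 (IL-2) and 1.01 (IL-2-REH) at 90 min. At 4 hr these ratios were 1.31 and 1.56. The log2 fold changes were -0.94 and -0.94 at 90 min and -1.06 and -0.87 at 4 hr with IL-2 and IL-2-REH (edgeR adjusted p = 0.26, 0.4, 0.15 and 0.31). Without replicate 1 they were -1.30, -1.30, -1.42 and -1.24 (edgeR adjusted p = 0.007, 0.0075, 0.0067 and 0.016). Pdk2, a related kinase, was at 1.56, 4.71 and 4.01 RPKM unstimulated, at 0.964 to 2.9 RPKM at 90 min and at 3.36 to 6.43 RPKM at 4 hr. Pfkfb3, which makes the main activator of phosphofructokinase, was at 5.34, 9.96 and 8.52 RPKM unstimulated, at 5.51, 6.58 and 5.41 RPKM with IL-2 and 5.18, 6.61 and 5.71 RPKM after IL-2-REH at 90 min. At 4 hr it was at 4.63, 6.23 and 5.09 RPKM with IL-2 and at 4.53, 6.09 and 3.71 RPKM after IL-2-REH (log2 fold change -0.72 ± 0.22, edgeR adjusted p = 0.17, 0.04 with the replicate block and 0.028 without unstimulated replicate 1). The pyruvate dehydrogenase subunits Pdha1 and Pdhb and the kinase Pfkfb4 were not called against unstimulated cells in these fits.

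In the hypoxia group, Hif1a and P4ha1 were highest with IL-2 at 90 min. P4ha1, a prolyl hydroxylase of collagen, was at 20.9, 17.1 and 20.4 RPKM in unstimulated Tregs and at 33.3, 43 and 47.5 RPKM with IL-2 at 90 min, a log2 fold change of 1.24 ± 0.25 (SE, edgeR adjusted p = 0.036). It was at 27.9, 33.1 and 36.3 RPKM with IL-2-REH at 90 min (0.88 ± 0.25, edgeR adjusted p = 0.38, and 0.031 without unstimulated replicate 1). At 4 hr it was at 28.8, 33.5 and 29.8 RPKM with IL-2 and at 27.5, 23.1 and 23.4 RPKM after IL-2-REH. All 12 treated libraries were above the 3 unstimulated ones. Hif1a was at 90.8, 54.4 and 61.9 RPKM unstimulated, 152, 144 and 171 with IL-2 at 90 min, and 105, 104 and 107 after IL-2-REH at 90 min. The IL-2, IL-2-REH and unstimulated libraries did not overlap at that time. The log2 fold change of Hif1a with IL-2 was 1.29 ± 0.34 (edgeR adjusted p = 0.12), and 1.65 without unstimulated replicate 1 (edgeR adjusted p = 0.01). At 4 hr Hif1a was at 77.7, 123 and 66.3 RPKM with IL-2 and at 66.6, 95.3 and 32 after IL-2-REH, and the groups overlapped the unstimulated one. Exons of Hif1a overlap those of Gm15283 on the opposite strand and of Gm49321 on the same strand. Bnip3, a mitophagy gene and HIF target, was at 1.1 to 4.57 RPKM in all 15 libraries and was not called.

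The 4 genes of the pentose phosphate pathway, the dehydrogenases G6pdx and Pgd and the carbon-shuffling enzymes Tkt and Taldo1, had no call in any comparison with unstimulated Tregs, with or without replicate 1. G6pdx was at 9.74 to 18.7 RPKM over the 15 libraries and Pgd at 14 to 26.9 RPKM. Tkt was at 37.2, 46.1 and 40 RPKM in unstimulated cells and at 23.1 to 39.2 RPKM in the treated libraries.

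Of the glutamine and aspartate genes, Gls2 and Got1 differed widely between the unstimulated libraries. Gls2, the liver-type glutaminase that turns glutamine into glutamate, was at 5.42, 0.11 and 0.0397 RPKM in unstimulated replicates 1, 2 and 3, from 839, 20 and 6 reads. With IL-2 it was at 6.66, 3.69 and 4.03 RPKM at 90 min and 5.6, 7.68 and 3.38 RPKM at 4 hr. With IL-2-REH it was at 8.13, 4.91 and 4.76 RPKM at 90 min and 6.07, 8.59 and 5.85 RPKM at 4 hr. Each treated library was above its same-numbered unstimulated one, by 1.23-fold in replicate 1 with IL-2 at 90 min against 33.5-fold and 101-fold in replicates 2 and 3. With all libraries the log2 fold changes were 1.33 ± 1.08 and 1.64 ± 1.08 at 90 min and 1.47 ± 1.08 and 1.72 ± 1.09 at 4 hr (SE), and none passed the test (edgeR adjusted p = 0.62, 0.57, 0.51 and 0.53). Without unstimulated replicate 1 they were 6.18 ± 0.45, 6.49 ± 0.45, 6.32 ± 0.45 and 6.57 ± 0.46 (edgeR adjusted p = 1e-05, 8e-06, 1.8e-05 and 1.2e-05). Exons of Gls2 overlap those of Spryd4 on the opposite strand.

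Got1, the cytosolic aspartate transaminase of the malate-aspartate shuttle, was at 189, 12.6 and 18.7 RPKM in unstimulated replicates 1, 2 and 3. With IL-2 it was at 120, 114 and 115 RPKM at 90 min and 63.6, 83.1 and 50.4 RPKM at 4 hr. With IL-2-REH it was at 135, 129 and 147 RPKM at 90 min and 61, 70.3 and 73.6 RPKM at 4 hr. Every treated library lay between replicate 1 and replicates 2 and 3, and at 90 min all 6 were above all 6 at 4 hr. With all 3 unstimulated libraries the log2 fold changes ran from -0.24 to 0.91 and none passed. Without replicate 1 they were 3.10 with IL-2 and 3.33 after IL-2-REH at 90 min, and 2.17 and 2.18 at 4 hr (edgeR adjusted p = 4.1e-05, 3e-05, 0.00057 and 0.00083). Got2, the mitochondrial enzyme of the same shuttle, stayed at 20.1 to 31.9 RPKM in the 15 libraries and was not called.

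**Figure D3:**
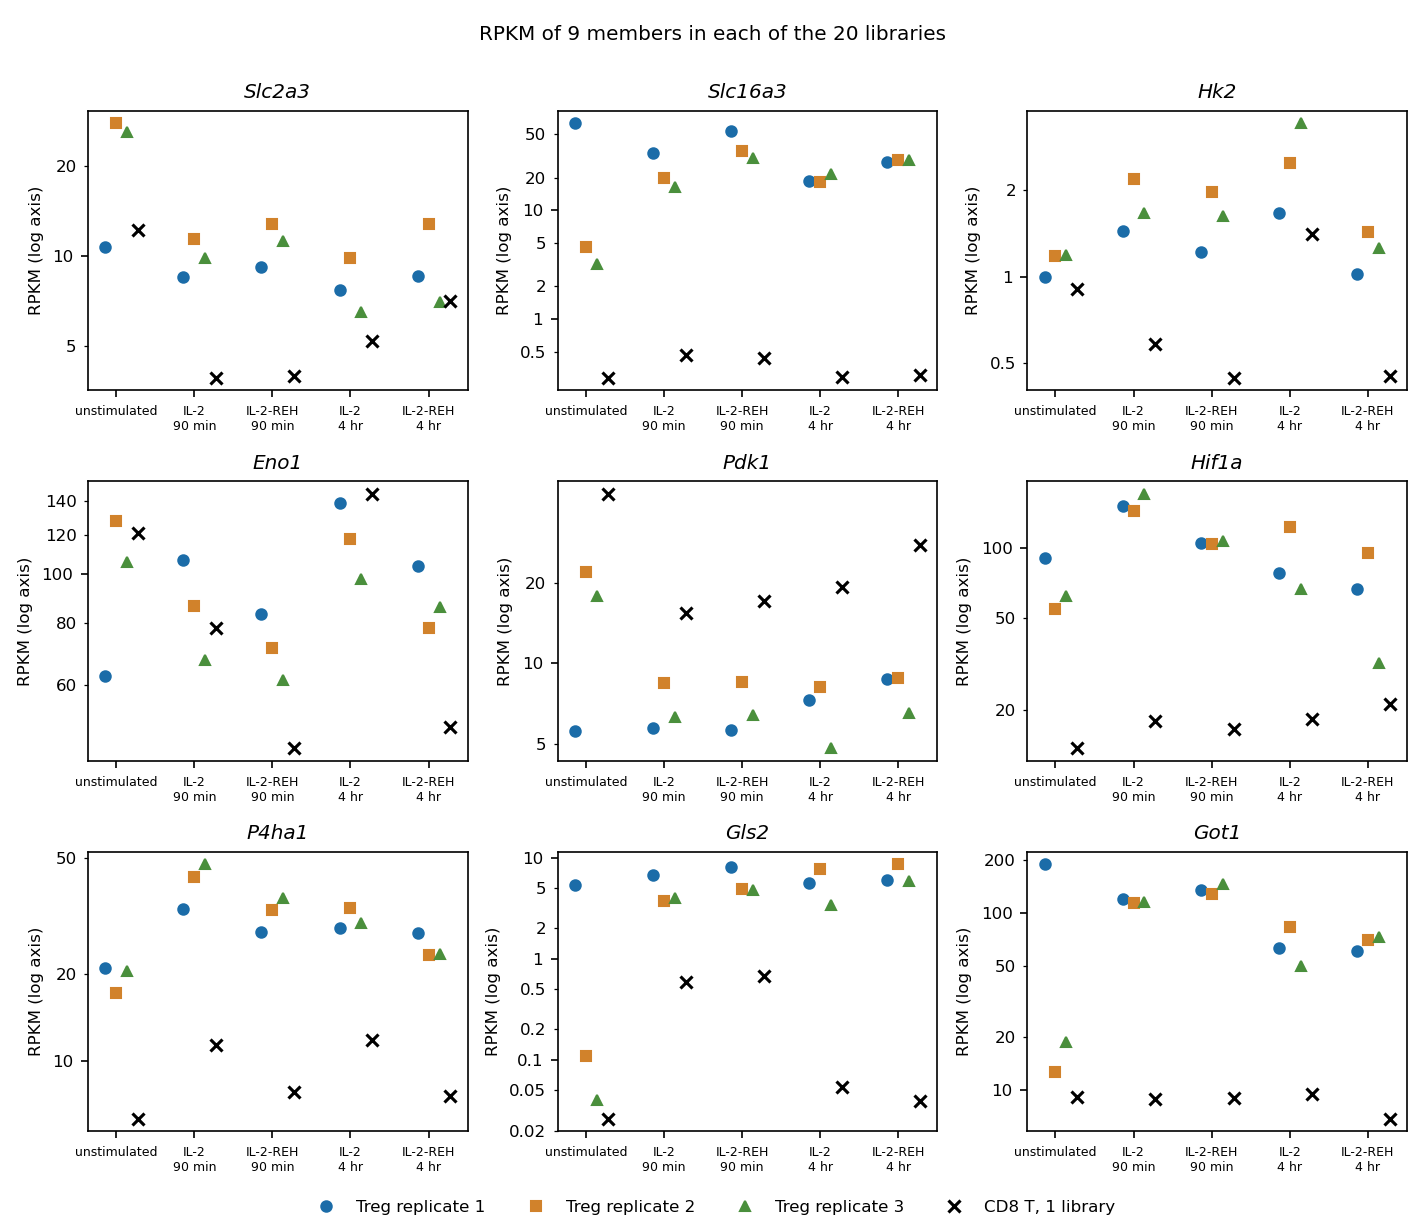
RPKM (log axis) of 9 members in the 20 libraries, by cytokine and time. Filled symbols are the 3 Treg replicates and crosses the single CD8+ libraries. Replicate 1 of the unstimulated Tregs is at 5.42 RPKM for Gls2 against 0.11 and 0.0397 in the others, and at 189 against 12.6 and 18.7 for Got1.

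A list of 90 further genes of the same pathways, of which 82 could be tested, had similarly few calls. With all 3 unstimulated libraries, 1 rose with IL-2 at 90 min (Prps1, which makes the ribose donor of nucleotide synthesis, log2 fold change 1.15 ± 0.24, edgeR adjusted p = 0.041) and 1 with IL-2-REH at 4 hr (Eno2, an enolase, 1.25 ± 0.24, edgeR adjusted p = 0.045). With the replicate block 3 were called with IL-2 at 90 min (Prps1, Glud1 and Me2, all higher), 4 with IL-2 at 4 hr (Glud1, Gpt2 and Idh1 higher and Prps2 lower) and 4 after IL-2-REH at 4 hr (Eno2 and Idh1 higher, Pfkfb2 and Psat1 lower). Without replicate 1, 16 were higher and 4 lower with IL-2 at 90 min (of 82, against 12.9% of all genes called), and 14 higher and 2 lower after IL-2-REH (against 12.1%). At 4 hr the counts were 6 and 3 with IL-2 (against 8.87%) and 5 and 4 after IL-2-REH (against 6.93%). Of the 14 hypoxia genes on the list, 6 were higher and 0 lower with either cytokine at 90 min, and their median log2 fold change was 0.63 with IL-2 and 0.67 after IL-2-REH, against 0.03 and 0.04 over all genes. They included Arnt, the partner of HIF-1alpha (1.87 with IL-2 and 1.52 after IL-2-REH, edgeR adjusted p = 0.00012 and 0.00058), and Epas1, which encodes HIF-2alpha (3.48 and 4.21, edgeR adjusted p = 0.00012 and 4.8e-05). The rest were Bnip3l (0.69 and 0.72), Egln3 (1.05 and 1.29), Hif1an (1.10 and 1.15) and Vhl (0.55 and 0.61). None of the 14 was called with all 3 unstimulated libraries. Of 23 genes of the TCA cycle, 2 were higher and 1 lower with IL-2 at 90 min. All these comparisons share the unstimulated libraries.

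IL-2-REH was then set against IL-2 at equal dose and time, which does not use the levels of the unstimulated libraries, which enter it only through the shared estimate of the spread. In Tregs no member differed between the cytokines at 90 min (0 of 37, against 0.0133% of all genes called by edgeR) or at 4 hr (0 of 37, against 0.0267%), and at an unadjusted p below 0.05 there were 0 and 3, against 0.993% and 3.72% of all genes. DESeq2 also called 0 and 0, against 0.0698% and 0.401%. The median log2 difference of the members, IL-2-REH minus IL-2, was 0.04 at 90 min and -0.06 at 4 hr, against 0.02 and 0.01 over all genes. At 4 hr the 3 members with an unadjusted p below 0.05 were Hk2, Slc2a1 and Eno1, all lower with IL-2-REH. Hk2 had the estimate furthest from 0, -1.12 (95% CI -1.80 to -0.43, edgeR adjusted p = 0.75), and its values with IL-2-REH (1.02, 1.43 and 1.26 RPKM) were below all those with IL-2 (1.67, 2.49 and 3.41 RPKM). Under the replicate block alone the Hk2 estimate was -1.08 (95% CI -1.59 to -0.56, edgeR adjusted p = 0.16). With the replicate block and without unstimulated replicate 1 together, Hk2 was called (-1.07, edgeR adjusted p = 0.043), as 1 of 37 members against 0.549% of all genes. Slc2a1 differed by -0.41 (95% CI -0.70 to -0.12, edgeR adjusted p = 1) and Eno1 by -0.47 (95% CI -0.92 to -0.01, edgeR adjusted p = 1). Enolase Eno1 was at 139, 118 and 97.7 RPKM with IL-2 and at 104, 78.1 and 86.2 RPKM after IL-2-REH.

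At 90 min the estimates furthest from 0 were those of Slc16a3 (0.77, 95% CI -0.93 to 2.47), Hif1a (-0.58, 95% CI -1.30 to 0.15) and P4ha1 (-0.36, 95% CI -0.89 to 0.17), with edgeR adjusted p = 1 for each. Hif1a and P4ha1 were lower with IL-2-REH in all 3 same-numbered pairs at either time, and Slc16a3 was higher. At 4 hr Hif1a differed by -0.53 (95% CI -1.26 to 0.19) and P4ha1 by -0.38 (95% CI -0.91 to 0.16). These intervals still hold differences of over 2-fold for Hif1a and Slc16a3, so equal responses were not shown. The interval of Slc16a3 rests on a spread shared with the unstimulated libraries, which held 63.3, 4.62 and 3.24 RPKM. Paired Slc16a3 ratios of IL-2-REH to IL-2 were 1.57, 1.77 and 1.86 at 90 min and 1.5, 1.62 and 1.35 at 4 hr. The intervals are much narrower for Pgam1 (0.02, 95% CI -0.31 to 0.35, at 90 min) and Got2 (0.08, 95% CI -0.22 to 0.37, at 4 hr).

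Counted by direction, 7 members were lower with IL-2-REH in all 3 pairs at 90 min, which is 18.9% of the members against 15.8% of all genes, and 11 were higher, 29.7% against 19.2%. At 4 hr 12 members were lower, 32.4% against 12.6% of all genes, and 9 were higher, 24.3% against 26.2%. The 12 were Slc2a1, Slc16a1, Hk2, Pfkl, Pfkp, Tpi1, Pgk1, Eno1, Pfkfb3, Pdha1, Hif1a and P4ha1. Of them, Slc16a1, Hk2, Eno1, Pdha1, Hif1a and P4ha1 were also among the 7 that were lower at 90 min. The 9 that were higher were Slc2a3, Slc16a3, Gpi1, Aldoa, Eno3, Pdk1, Pdk2, G6pdx and Gls2. No test was run on these counts.

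**Figure D4:**
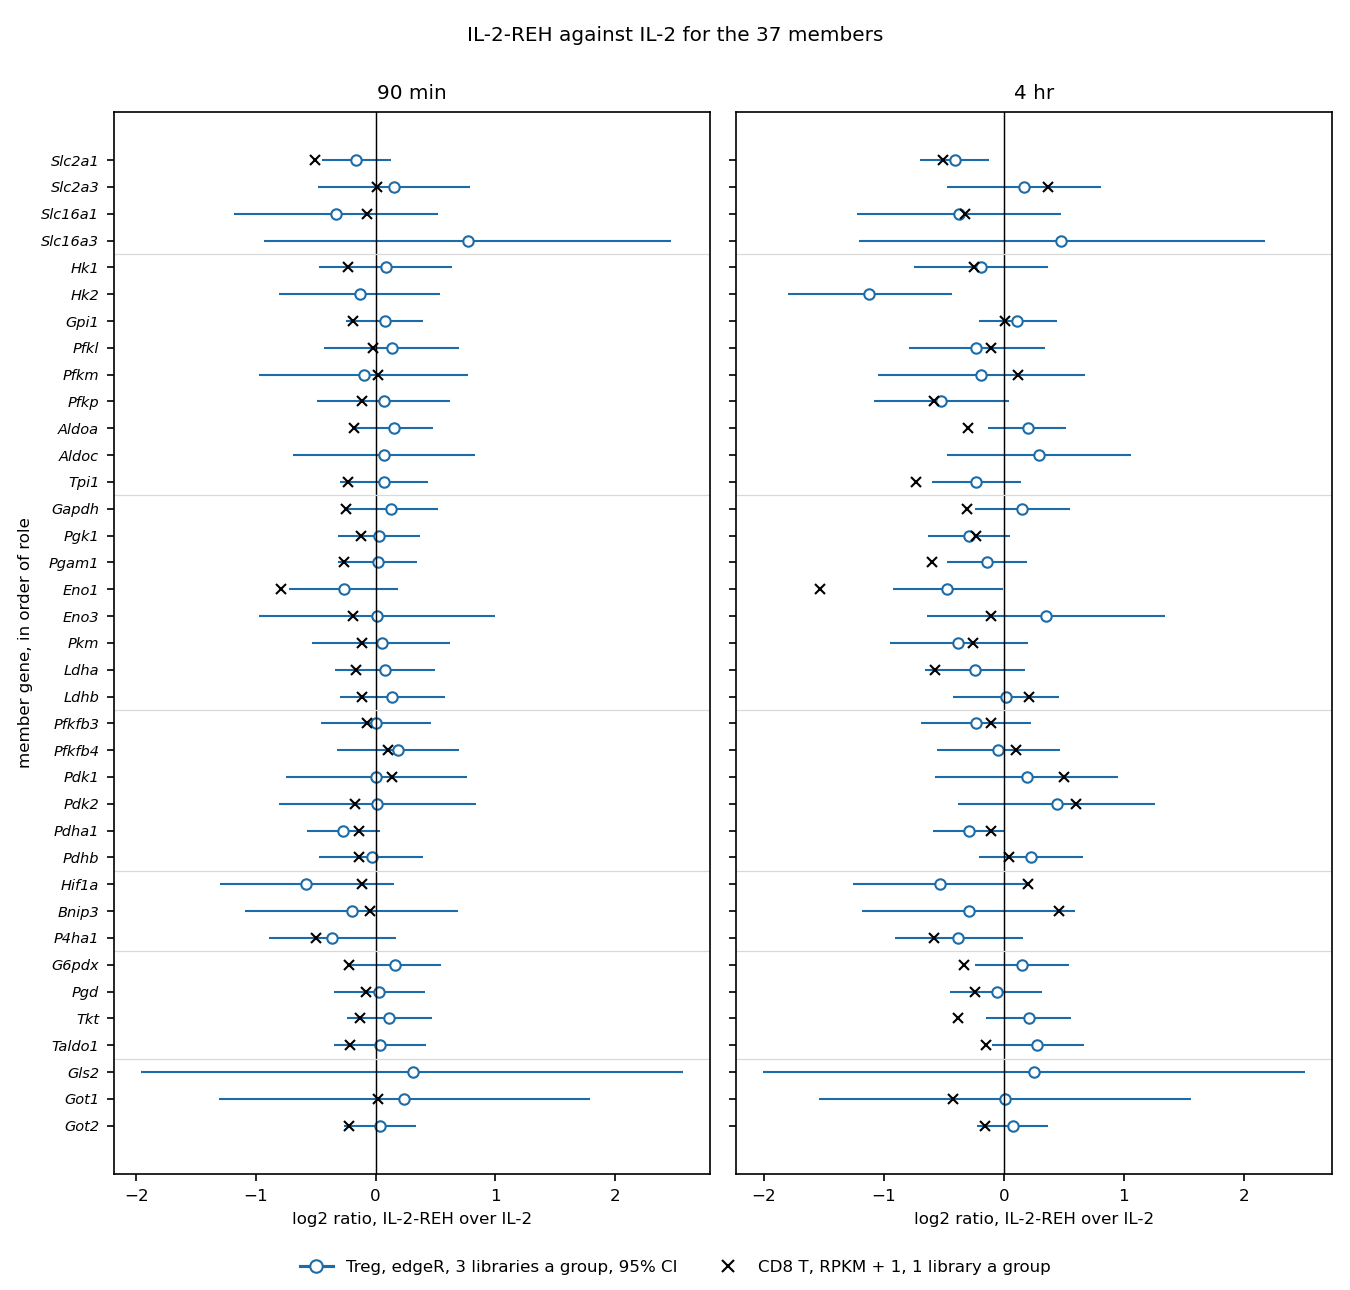
Log2 ratio of IL-2-REH over IL-2 for each of the 37 members at 90 min and 4 hr. Open circles are Tregs with 95% confidence intervals from edgeR (3 libraries a group) and crosses are CD8+ cells (1 library a group, no error). No Treg value passed the test, and Eno1 at 4 hr is the 1 CD8+ ratio past 2-fold.

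Between 90 min and 4 hr no member was called with IL-2 (0 of 37, against 0% of all genes) or IL-2-REH (0 of 37, against 0%) in edgeR, where 9 members in each had an unadjusted p below 0.05, against 17% and 14.6% of all genes. DESeq2 called 1 and 2 members, against 3.19% and 1.98%. Without unstimulated replicate 1 edgeR called 1 member in each (against 0.678% and 0.458%), and with the block as well 6 and 5 (against 11.6% and 11.4%). Got1 was lower at 4 hr in all 3 pairs with either cytokine (log2 fold change -0.92 ± 0.73 with IL-2 and -1.15 ± 0.73 after IL-2-REH, edgeR adjusted p = 0.52 and 0.48). Without unstimulated replicate 1 the change with IL-2-REH passed the test (-1.15 ± 0.22, edgeR adjusted p = 0.045). Slc16a1 was lower at 4 hr by -1.14 ± 0.40 with IL-2 and -1.17 ± 0.40 after IL-2-REH (edgeR adjusted p = 0.22 and 0.26), and Pdk2 higher by 1.07 ± 0.39 and 1.49 ± 0.39 (edgeR adjusted p = 0.22 and 0.25). A change of the difference between the cytokines from 90 min to 4 hr was not called for any member in edgeR (0 of 37, against 0% of all genes, with 1 member at an unadjusted p below 0.05 against 0.313% of all genes, and 0 members and 0% of all genes by DESeq2). The estimates furthest from 0 were those of Hk2 (-0.98 ± 0.45), Pfkp (-0.58 ± 0.37) and Pkm (-0.43 ± 0.38), each with an edgeR adjusted p = 1.

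In CD8+ T cells there was 1 library a group, so the ratios below have no replicate check and no test. Of the 37 members, 33 averaged 1 RPKM or more in the 5 libraries and Slc16a3, Hk2, Aldoc and Gls2 did not. Log2 ratios of RPKM + 1 past an absolute value of 1 were counted, and those of members were all downward. With IL-2 at 90 min there were 3 (Slc2a3, Tpi1 and Pdk1, against 7.24% of 10021 genes in either direction) and with IL-2-REH 4 (the same and Eno1, against 8.57%). At 4 hr there were 3 with IL-2 (Slc2a3, Ldhb and Pdk1, against 4.71%) and 2 with IL-2-REH (Tpi1 and Eno1, against 6.11%). The median ratio of the 33 members was -0.31 and -0.49 at 90 min and -0.22 and -0.51 at 4 hr with IL-2 and IL-2-REH. Over all genes it was -0.04, -0.12, -0.07 and -0.02. The library given IL-2-REH for 90 min was thus shifted by -0.12 as a whole, and after each library was centred on its median the count there was still 4. Over all genes that library had 247 ratios past 2-fold upward and 612 downward, and 334 and 467 after centring. For comparison, pairs of Treg replicates within a group (13 pairs, unstimulated replicate 1 left out) had 0 to 2 members over 2-fold and 0.573% to 11% of all genes.

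Slc2a3 in CD8+ cells was at 12.2 RPKM unstimulated, at 3.91 and 3.96 RPKM with IL-2 and IL-2-REH at 90 min, and at 5.19 and 7.03 RPKM at 4 hr. Pdk1 was at 43.3 RPKM unstimulated, at 15.4 and 17.1 at 90 min, and at 19.3 and 27.8 at 4 hr. Both genes were also lower after either cytokine in Treg replicates 2 and 3. Tpi1 was at 21.6 RPKM unstimulated, 9.82 and 8.22 at 90 min, and 12.7 and 7.28 at 4 hr. Ldhb, the lactate dehydrogenase subunit that favours pyruvate, was at 5.54 RPKM unstimulated and at 2.15 and 2.65 at 4 hr. Gls2 was counted with 4 reads in unstimulated CD8+ cells, 103 and 104 at 90 min and 9 and 7 at 4 hr with IL-2 and IL-2-REH, or 0.0262 to 0.671 RPKM. The 90 min libraries thus held the most reads with either cytokine, at levels below every treated Treg library. Got1 was nearly flat in CD8+ cells, at 6.88 to 9.51 RPKM.

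IL-2-REH and IL-2 gave no member ratio past 2-fold at 90 min in CD8+ cells (0 of 33, against 0.868% of all genes) and 1 at 4 hr (1 of 33, against 2.23%). This was Eno1, the main enolase, at 145 RPKM with IL-2 and 49.4 after IL-2-REH at 4 hr, a log2 ratio of -1.53. It was at 78.3 and 44.9 RPKM at 90 min and at 121 RPKM in unstimulated cells. The same-numbered Treg pairs at 4 hr had log2 ratios of -0.42, -0.59 and -0.18 for Eno1. In all, 28 of 33 members were lower with IL-2-REH than with IL-2 at 90 min and 23 of 33 at 4 hr, with a median of -0.14 and -0.23 against -0.07 and 0.08 over all genes. After centring each library these counts were 25 and 25. No share of all genes lower with IL-2-REH is given, so these counts are not read as results about the members. Hk2 was at 1.41 RPKM with IL-2 and 0.451 after IL-2-REH at 4 hr, below the level set for counting. Ldha was at 123 and 82.7 RPKM and Slc2a1 at 10.4 and 6.99.

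The levels of several members differed between the cell types. Among genes that averaged 1 RPKM or more in both cell types, the CD8+ library lay below all 3 Treg libraries in all 5 conditions for 9 of 33 members, against 11% of 9669 genes. These were Pfkl, Gapdh, Pkm, Ldhb, Pfkfb4, Pdha1, Hif1a, P4ha1 and Got1. It lay above them for 1 of 33, Pdk1, against 7.59%. With genes kept by their mean over all 20 libraries, Slc16a3, Hk2, Aldoc and Gls2 joined those below, 13 of 37 against 14.2% of 10457 genes (and 7.77% above), but these 4 passed that limit only through the Tregs, and unstimulated Gls2 rested on 4 reads in CD8+ cells against 6 in the lowest Treg library. Slc16a3 was at 0.289 to 0.464 RPKM in CD8+ cells and at 3.24 to 63.3 in Tregs. Hif1a was at 13.7 to 21.3 RPKM in CD8+ cells and at 32 to 171 in Tregs. Ldhb was at 2.15 to 5.54 RPKM in CD8+ cells and at 13.2 to 24 in Tregs, and P4ha1 at 6.35 to 11.8 and 17.1 to 47.5. Pdk1 was higher in CD8+ cells by 2.26-fold to 3.46-fold over the Treg mean of the same condition. Gapdh was the highest member in both cell types, at a mean of 193 RPKM in CD8+ cells and 301 in Tregs. When each library was centred on its median, 10 of the 37 members in place of 14 lay outside. The 14 include the 4 that passed the limit only through the Tregs. No share of all genes is given for the centred libraries, so that count is not set against one.

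**Figure D5:**
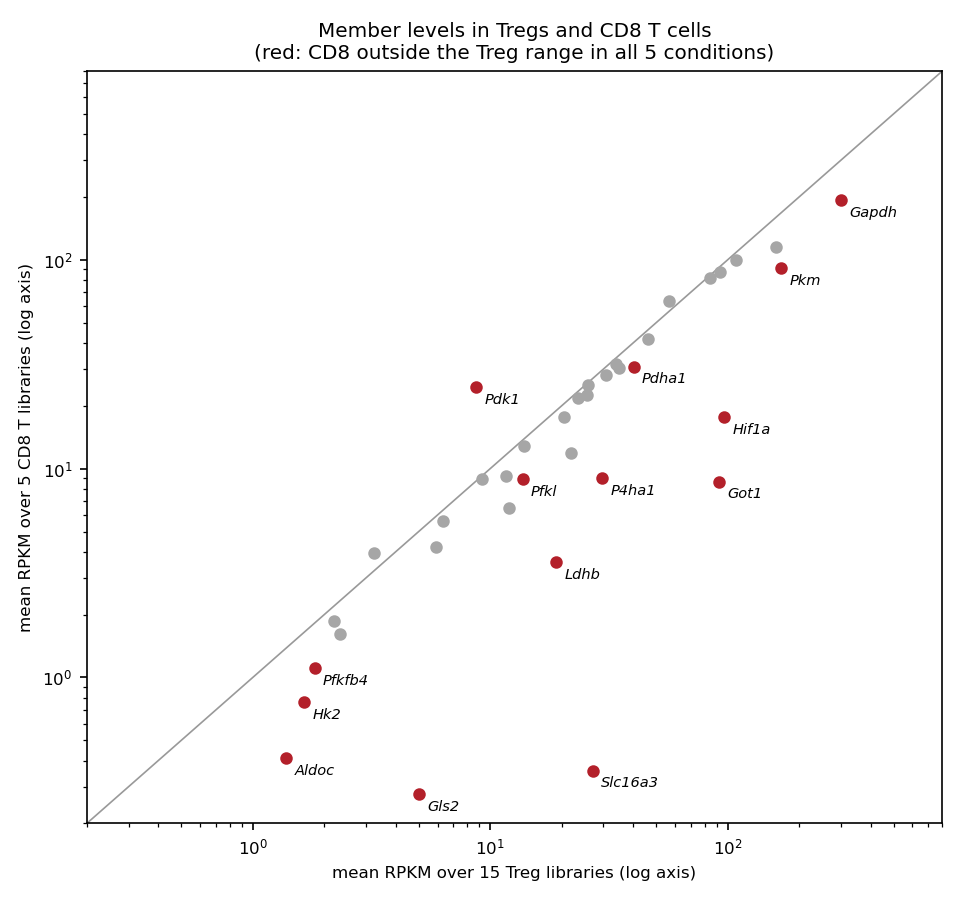
Mean RPKM of the 37 members over 15 Treg libraries (horizontal, log axis) and over 5 CD8+ libraries (vertical, log axis), with the line of equal levels. Red points are the 14 members whose CD8+ library lay outside the 3 Treg libraries in all 5 conditions, 13 below the line and Pdk1 above it. Of those below, Slc16a3, Hk2, Aldoc and Gls2 averaged under 1 RPKM in CD8+ cells.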

How the data were processed

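RNA from 15 Treg and 5 CD8+ libraries was prepared with the Kapa mRNA HyperPrep kit and sequenced as 50 bp single-end reads. Per the labels and the study's methods, the authors aligned reads to mm10 with TopHat2 2.1.1 and Bowtie2 2.2.6, and counted uniquely mapped reads on RefSeq exons. SAMtools 0.1.8 and bedtools 2.25.0 are also named in the submitters' processing notes, and whether counting used strand is not given in the sources used here. The deposited tables hold read counts and RPKM values per transcript for 31682 transcripts.

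Treg counts were tested with the quasi-likelihood test of edgeR 4.0.16 in R 4.3.3, with TMM normalization, filterByExpr, 1 mean per group over all 15 libraries and Benjamini-Hochberg adjustment over 15009 genes. An adjusted p below 0.05 was called. CD8+ libraries, 1 a group, were compared by the log2 ratio of RPKM + 1 for genes with a mean of at least 1 RPKM, without a test. Any of the 37 members could be named, and fold changes are given for those called and for those furthest from 0 where fewer than 3 were called, besides Gls2, Slc2a1, Slc2a3, Hk2, Ldha, Hif1a, Pdk1 and Pfkfb3. The members and lists were chosen with earlier results of these data known. Same-numbered Treg libraries deviated together from their group means in 30 of 30 pairs (correlations of 0.118 to 0.906), so the numbers were taken as pairing the samples, and a fit with the replicate number as a block was run.

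Alternatives were DESeq2 1.42.0, limma 3.58.1 on log2(RPKM + 1), no filter, the longest transcript, libraries left out, and a pseudocount of 0.1 or centring for CD8+ ratios. In simulated counts for IL-2 at 4 hr against unstimulated Tregs (14966 genes), edgeR recovered 22.7% of changes of 1 and 81.2% of changes of 2 on the log2 scale, and 5.13% of 117 calls were false. The simulated libraries were drawn independently, without pairing of replicates and without an unstimulated library that stood apart. These rates therefore need not hold for the comparisons above. Depth was 20201392 to 63903764 reads on genes per library. Promoter windows and gene positions are from RefSeq on GRCm38.p6. By these positions 13 members have exons that overlap those of another gene. They are Slc2a1, Gpi1, Pfkm, Pfkp, Aldoa, Tpi1, Pkm, Pdha1, Hif1a, Bnip3, Tkt, Gls2 and Got2.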

Additional observations from a re-analysis of the deposited data

How the results depend on the processing

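For the counts of members called or outside a range, 98 alternative values stayed within 1.5 times the reported count and 38 did not, and the cause was not tested. DESeq2 called 4 members with IL-2 at 90 min, 4 with IL-2 at 4 hr, 2 with IL-2-REH at 4 hr, and 1 and 2 between 90 min and 4 hr with IL-2 and IL-2-REH. Leaving out libraries gave 0 to 12 members with IL-2 and 0 to 11 after IL-2-REH at 90 min, 0 to 10 and 0 to 8 at 4 hr, 0 to 2 and 0 to 3 between the times, and 0 between the cytokines at either time. All leave-out counts above 1 came without replicate 1 or its unstimulated library, and without that library 1997, 1874, 1374 and 1073 genes were called against unstimulated cells. CD8+ libraries lay outside the Tregs in 14 to 17 members when libraries were left out and in 10 when centred, and in 10 of 33 when genes low in either cell type were left out, an alternative chosen after seeing the data. With a pseudocount of 0.1, 5 and 7 members passed 2-fold in CD8+ cells at 90 min with IL-2 and IL-2-REH. No share of all genes is given for this pseudocount, or for the CD8+ counts with libraries left out or centred. Nor is one given for the members called with libraries left out, beyond the shares printed above without unstimulated replicate 1. Counts without such a share are therefore not read as results about the members. With the replicate block 4 members were called with IL-2 and 2 after IL-2-REH at 4 hr, and the block changed no other call of a member. For comparisons between the cytokines or between the times, no share of all genes with the block alone is given. The block without unstimulated replicate 1, chosen after seeing the data, gave 17 and 17 at 90 min, 13 and 9 at 4 hr, 1 for IL-2-REH against IL-2 at 4 hr, and 6 and 5 between the times with IL-2 and IL-2-REH. Several log2 fold changes turned direction, among them small ones such as Slc16a1 with IL-2-REH at 4 hr (-0.22 with all libraries and 0.27 without unstimulated replicate 1), and, of those recomputed under every alternative, Slc16a3 with IL-2 at 90 min (limma 1.02, block 0.54, block without unstimulated replicate 1 2.67, libraries left out -0.56 to 2.77) and at 4 hr (0.82, 0.35, 2.4, and -0.98 to 2.50), Slc16a3 with IL-2-REH at 4 hr (libraries left out -0.41 to 2.98), and Got1 at 4 hr with IL-2 (limma 0.82, block 0.16, block without unstimulated replicate 1 2.28, libraries left out -0.87 to 2.17) and IL-2-REH (0.90, 0.18, 2.27, and -0.79 to 2.25). With 3 libraries a group, smaller changes could be missed.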
